A study of Mus musculus with 23 samples.

Results

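The sestrins and a group of p53 target genes were followed in *longissimus dorsi*, a paraspinal back muscle, and in tongue of mice from the BION-M1 biosatellite. The genes were Sesn1, Sesn2, Cdkn1a, Gadd45a, Mdm2, Ccng1, Trp53inp1 and Bax, and every probe set whose platform annotation names exactly 1 of them was taken. This gave 15 of the 22626 probe sets, which covered 7 of the 8 genes. The annotation used here names Bax on no probe set of its own, so Bax was not analysed here. The number of probe sets was 3 for Sesn1, 2 for Sesn2, 2 for Cdkn1a, 1 for Gadd45a, 2 for Mdm2, 3 for Ccng1 and 2 for Trp53inp1.

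The transcription factor p53 is stabilized by DNA damage and other stress, binds paired decamers in the DNA, and switches on genes that halt the cell cycle, repair DNA or start cell death. Its targets include Cdkn1a, Gadd45a and Mdm2, and the MDM2 protein in turn marks p53 for degradation, which closes a feedback loop. Sestrins are stress proteins that hold back the growth kinase complex mTORC1 through the GATOR complexes and AMPK, and in skeletal muscle, where fibres do not divide, several of these genes are also known to respond to disuse, denervation and glucocorticoids.

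Animals were male mice, C57/BL6 by the labels and C57BL/N6 by the methods of the study, aged 19 to 20 weeks. BF mice flew for 30 days, FC mice were housed in the animal facility, and BG mice were housed in the biosatellite habitat, on the ground. There were 5 BF, 5 FC and 5 BG arrays of *longissimus dorsi* (LD) and 3 BF, 2 FC and 3 BG arrays of tongue, 1 Affymetrix array per tissue sample. Flown mice were sampled 12 to 14 hours after landing, so flight and the hours on the ground that followed it cannot be told apart. It is not stated if the tongue samples are from the mice that gave *longissimus dorsi*, and p-values measure only the spread between these samples.

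The values are log2 expression per probe set, so a step of 1 stands for a 2-fold change. Array medians lay between 6.42 and 6.61. The summed level of 8 muscle fibre markers (the log2 of the sum of their linear values) was 17.13 to 17.18 in BF, 17.08 to 17.17 in FC and 17.07 to 17.12 in BG *longissimus dorsi*, and 16.35 to 16.84 over the tongue arrays. Keratinocyte markers, 7 in number, summed to 7.96 to 8.30 in *longissimus dorsi* and to 15.49 to 15.81 in tongue, so the tongue samples carried keratinocyte RNA as well. In *longissimus dorsi*, array BF 1 had the highest sum of 4 Schwann cell markers (12.33, against 10.43 to 11.26 on the FC and BG arrays), and array BG 5 had the highest sum of 9 macrophage markers (13.75, against 10.82 to 12.52 in BF). A call means an adjusted p under 0.05 in the moderated test of limma, with the Benjamini-Hochberg correction across the whole table.

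In *longissimus dorsi* of flown mice, 7 of the 15 probe sets were called higher than in BG and 0 were called lower, against 10.2% of all probe sets called in either direction and 6.41% called higher. These 7 were all 3 probe sets of Sesn1, both of Cdkn1a, the single one of Gadd45a and 1 of the 2 of Mdm2. Of the 15, 5 also changed by more than 2-fold, as did 0.424% of all probe sets. Against FC, 7 probe sets were again called higher and 0 lower, where 3.66% of all probe sets were called and 2.06% called higher. These 7 were those of Sesn1, Cdkn1a and Gadd45a again and 1 of the 2 probe sets of Sesn2. The 2 comparisons share the BF arrays.

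Sesn1 encodes sestrin 1, the sestrin first found as a p53 target. Its brightest probe set, 1433711_s_at, read 10.21, 10.33, 10.25, 10.59 and 10.03 in *longissimus dorsi* of BF mice, 8.87, 9.45, 9.12, 9.06 and 9.69 in FC mice, and 9.11, 9.13, 9.14, 9.31 and 9.11 in BG mice. Every BF array stood above every ground array, and the groups did not overlap. The means were 10.28 ± 0.20 in BF, 9.24 ± 0.33 in FC and 9.16 ± 0.083 in BG (SD, n = 5 each). The log2 change was 1.12 for BF vs. BG (SE 0.130, 95% confidence interval 0.85 to 1.39, limma adjusted p = 2.08e-05) and 1.04 for BF vs. FC (adjusted p = 7.18e-05), while the ground groups differed by 0.08 in FC vs. BG (adjusted p = 0.764).

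The other probe sets of Sesn1 moved in the same direction by a similar amount, with a wider spread. Probe set 1454699_at read 9.24, 9.73, 10.003, 10.41 and 9.68 in BF, 8.03, 8.85, 8.42, 8.65 and 8.84 in FC, and 8.42, 8.49, 8.44, 9.32 and 8.73 in BG *longissimus dorsi*. It was 1.13 higher in BF vs. BG (limma adjusted p = 0.00114) and 1.25 higher in BF vs. FC (adjusted p = 0.000875). Array BG 4 lay above array BF 1 here, whereas BF and FC did not overlap. Probe set 1438931_s_at was 1.16 higher in BF vs. BG (adjusted p = 0.00309) and 0.99 higher in BF vs. FC (adjusted p = 0.0172), and BF arrays 9.27 to 10.52 overlapped FC arrays 8.49 to 9.35 and BG arrays 8.41 to 9.44. Its call in BF vs. FC was lost without BF array 3 (adjusted p = 0.0504) or BF array 4 (adjusted p = 0.0655).

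Cdkn1a encodes p21, the inhibitor of cyclin-dependent kinases that arrests cells in G1. Probe set 1421679_a_at read 9.48, 9.61, 10.07, 10.23 and 10.18 in *longissimus dorsi* of BF mice, 7.91, 7.88, 8.11, 7.82 and 9.07 in FC mice, and 8.87, 8.19, 9.09, 7.88 and 9.12 in BG mice. All BF arrays were above all ground arrays. Within the ground mice the values were split, with FC array 5 and BG arrays 1, 3 and 5 near 9 and the other 6 arrays near 8.

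The log2 change of this probe set was 1.76 in BF vs. FC (adjusted p = 0.00029, a 3.38-fold change) and 1.29 in BF vs. BG (SE 0.246, 95% confidence interval 0.77 to 1.80, limma adjusted p = 0.00229). Probe set 1424638_at read 9.999, 10.28, 10.82, 10.95 and 10.91 in BF, 8.56, 8.73, 8.79, 8.77 and 9.81 in FC, and 9.58, 8.90, 9.56, 8.74 and 10.04 in BG. BF and FC did not overlap, whereas array BG 5 stood above array BF 1. Across the 15 arrays the probe sets of Cdkn1a followed each other with r = 0.99. The 0.47 lower mean of 1421679_a_at in FC vs. BG did not pass (adjusted p = 0.246).

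Gadd45a encodes a small growth arrest protein that is induced by DNA damage, and in muscle also by denervation and disuse. Its probe set 1449519_at read 8.81, 9.02, 9.17, 9.55 and 9.37 in *longissimus dorsi* of BF mice, 8.10, 8.76, 8.42, 8.31 and 8.41 in FC mice, and 8.15, 8.09, 8.50, 8.14 and 8.31 in BG mice. The lowest BF array was above the highest ground array. The means were 9.18 ± 0.29 in BF, 8.40 ± 0.24 in FC and 8.24 ± 0.17 in BG (SD, n = 5 each). The log2 change was 0.95 in BF vs. BG (SE 0.133, 95% confidence interval 0.67 to 1.22, limma adjusted p = 0.000157) and 0.78 in BF vs. FC (adjusted p = 0.00171), and 0.16 in FC vs. BG, which did not pass.

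**Figure D1:**
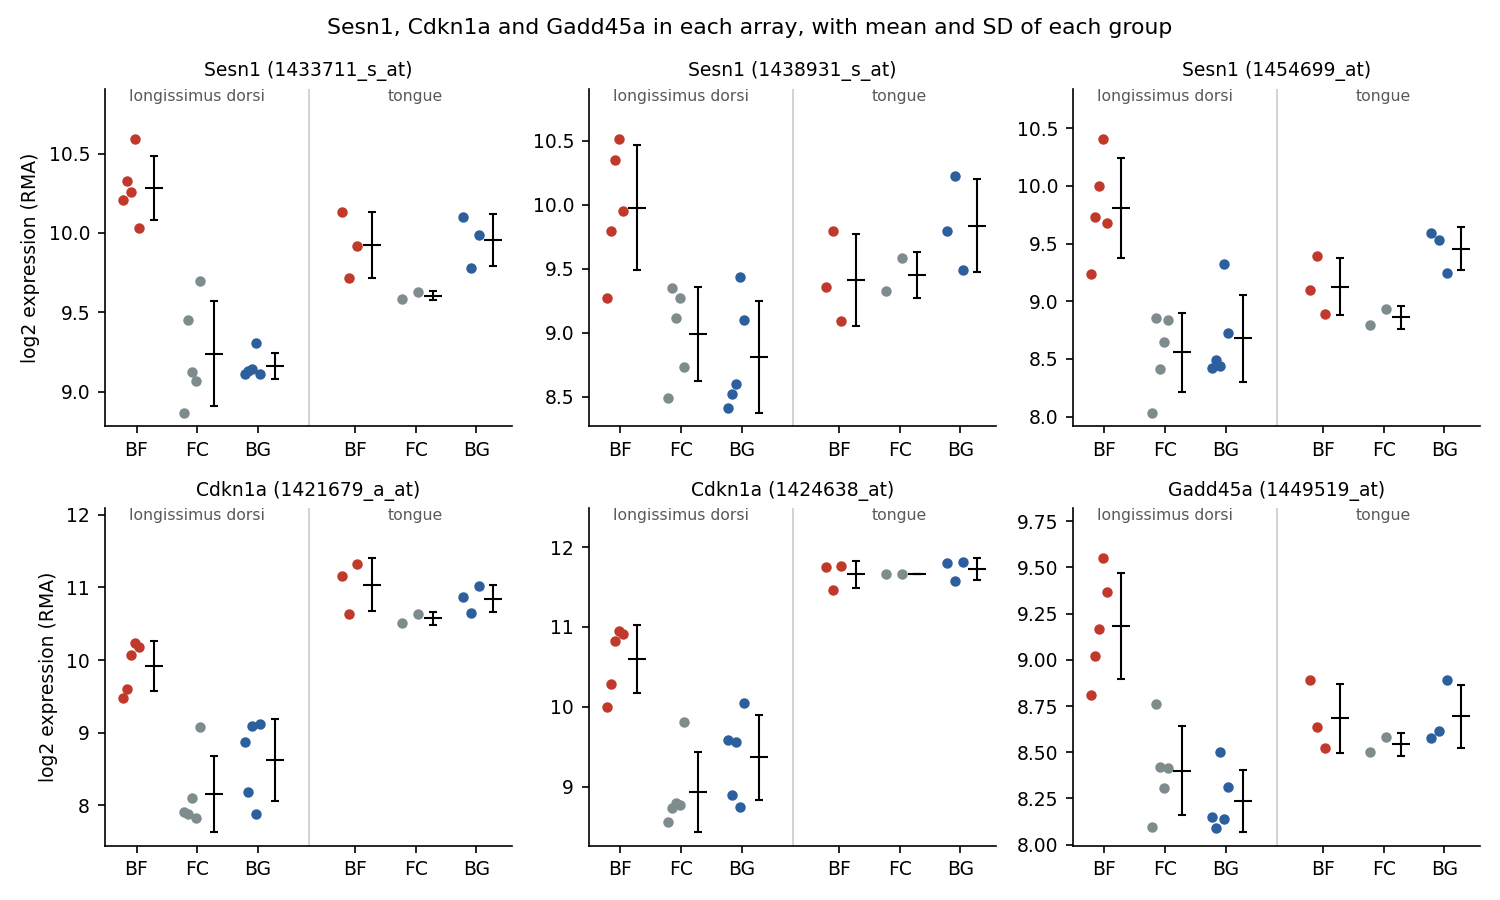
Log2 expression of the probe sets of Sesn1, Cdkn1a and Gadd45a by muscle and group, with 1 point per array and bars for the group mean and SD. In *longissimus dorsi* the BF arrays lie above the FC and BG arrays for 1433711_s_at, 1421679_a_at and 1449519_at. In tongue the BF and BG arrays overlap for every probe set shown. The FC tongue arrays lie below the BG tongue arrays for 1433711_s_at, 1454699_at and 1421679_a_at.

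The Sesn1, Cdkn1a and Gadd45a values moved together from array to array in *longissimus dorsi*. Over the 15 arrays, Pearson's r was 0.896 for Sesn1 with Gadd45a, 0.818 for Sesn1 with Cdkn1a and 0.817 for Cdkn1a with Gadd45a, taken on the brightest probe set of each gene. After each group's mean was subtracted, these values were 0.436, 0.353 and 0.525. They are given as a description, since the arrays share the 3 groups. Sesn2 had r of 0.518, 0.536 and 0.529 with Sesn1, Cdkn1a and Gadd45a, and -0.278, -0.249 and 0.03 after each group's mean was subtracted. Over the 15 arrays, Mdm2, Ccng1 and Trp53inp1 had r between -0.33 and 0.29 with these 3 genes.

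**Figure D2:**
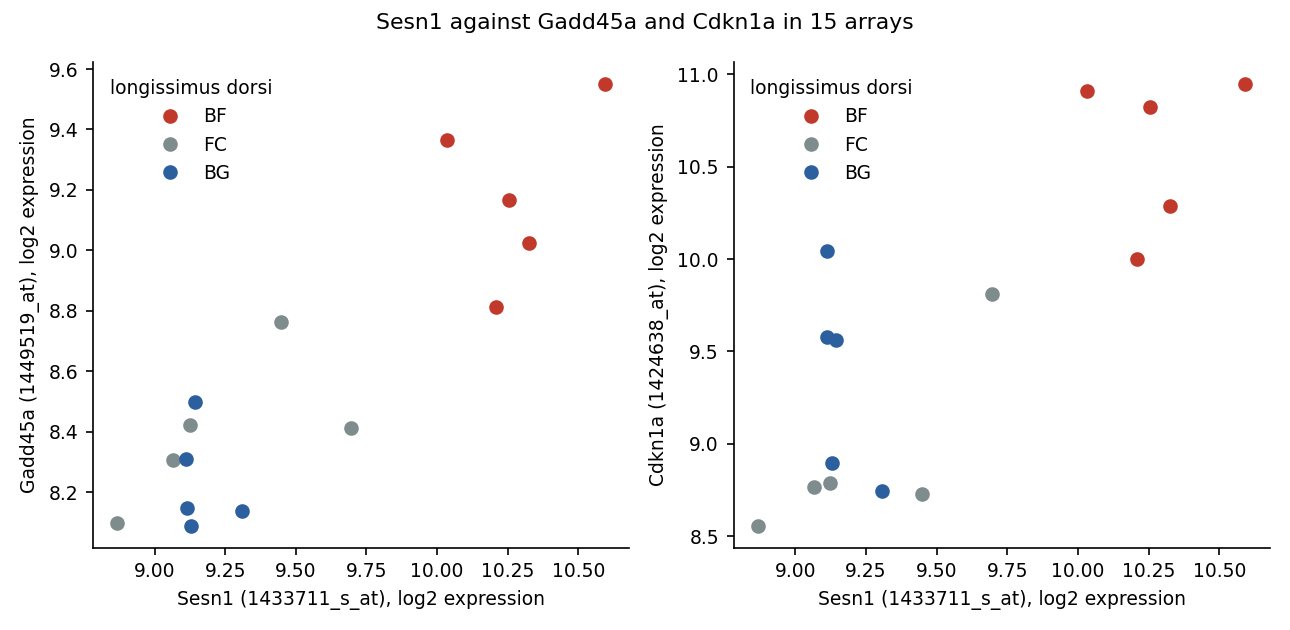
Log2 expression of Gadd45a and of Cdkn1a (vertical axes) against Sesn1 (horizontal axis) on the 15 *longissimus dorsi* arrays, coloured by group, brightest probe set of each gene. The BF arrays lie at the upper right of both panels, with r of 0.896 and 0.818 over all arrays.

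By RefSeq on GRCm38.p6, Sesn1 lies at chr10:41810574-41908436, Sesn2 at chr4:132492804-132510456, Cdkn1a at chr17:29090979-29100722, Gadd45a at chr6:67035096-67037407, Mdm2 at chr10:117688875-117710758, Ccng1 at chr11:40748552-40755309 and Trp53inp1 at chr4:11156441-11174379. The sequences around their starts were read from the same source, in which 7 of the 8 genes had 9 windows of 250 bases before to 50 bases after a start. Sequences are shown for Cdkn1a and Gadd45a and for the second start of Sesn1, the genes whose arrays moved together, and for Ccng1, a classical p53 target that did not move with them. Capitals mark matches to the p53 decamer, or to a pair of decamers with no spacer and at most 1 mismatch in each, and each run is the 250 bases before the start, 5′ to 3′ on the strand of the gene. The Cdkn1a run is chr17:29090729-29090978 (+), the Gadd45a run is chr6:67037408-67037657 (-), the Sesn1 run is chr10:41887189-41887438 (+) and the Ccng1 run is chr11:40755287-40755536 (-).
Cdkn1a: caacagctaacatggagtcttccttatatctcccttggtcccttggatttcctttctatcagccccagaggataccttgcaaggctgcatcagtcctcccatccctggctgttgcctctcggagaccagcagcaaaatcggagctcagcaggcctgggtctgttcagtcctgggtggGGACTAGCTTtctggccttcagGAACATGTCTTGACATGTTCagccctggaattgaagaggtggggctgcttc
Gadd45a: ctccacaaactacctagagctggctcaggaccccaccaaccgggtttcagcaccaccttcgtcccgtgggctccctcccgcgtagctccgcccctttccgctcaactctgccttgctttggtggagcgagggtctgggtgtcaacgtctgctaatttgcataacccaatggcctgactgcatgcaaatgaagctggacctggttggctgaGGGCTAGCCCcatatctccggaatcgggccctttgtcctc
Sesn1: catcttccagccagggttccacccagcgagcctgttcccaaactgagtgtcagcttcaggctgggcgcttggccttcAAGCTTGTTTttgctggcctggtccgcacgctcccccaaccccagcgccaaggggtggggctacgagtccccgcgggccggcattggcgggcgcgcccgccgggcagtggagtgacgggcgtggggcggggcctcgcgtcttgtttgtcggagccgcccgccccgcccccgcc
Ccng1: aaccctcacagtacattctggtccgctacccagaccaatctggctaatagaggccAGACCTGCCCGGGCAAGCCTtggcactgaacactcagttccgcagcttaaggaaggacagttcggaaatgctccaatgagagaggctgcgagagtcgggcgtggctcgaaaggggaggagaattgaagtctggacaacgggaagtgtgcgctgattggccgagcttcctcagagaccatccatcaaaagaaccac

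Counted from the start site, the pair of decamers in Cdkn1a lay from -51 to -32 and a single decamer from -73 to -64. Gadd45a had a single decamer from -40 to -31, Sesn1 one from -173 to -164 and Ccng1 a pair from -195 to -176. The pair was present in 2 of the 9 windows, Cdkn1a and Ccng1, and in 0.204% of all 32851 windows. A single decamer was present in 6 of the 9 windows, including those of Mdm2 and Bax, and in 8.36% of all windows. No match was found in these letters of the Sesn2 window, the downstream Cdkn1a start or the first Sesn1 start. The letters GTAAACA, a motif of forkhead factors searched on both strands, were in the windows of Mdm2 (-153 to -147) and of the first Sesn1 start (23 to 29 bases after it) and in 3.65% of all windows. A match is a match of letters and does not show binding in this muscle.

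Sesn2 encodes sestrin 2, which binds leucine and is induced by amino acid and oxidative stress as well as by p53. It is a dim gene on these arrays, with 32.9% and 44.5% of all probe sets dimmer. Probe set 1451599_at read 6.27, 6.45, 6.06, 6.33 and 6.38 in *longissimus dorsi* of BF mice, 6.001, 6.09, 5.93, 5.88 and 5.72 in FC mice, and 6.24, 6.25, 5.99, 5.93 and 6.15 in BG mice. The BF arrays overlapped both ground groups, narrowly for FC.

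It was 0.37 higher in BF vs. FC (limma adjusted p = 0.0403) and 0.18 higher in BF vs. BG (95% confidence interval -0.03 to 0.39, adjusted p = 0.271). The call against FC was lost under 10 of the alternatives, 7 of them single arrays left out (BF 1, 2, 4 and 5 and FC 3, 4 and 5, with adjusted p up to 0.106). Probe set 1425139_at gave 0.28 in BF vs. FC (adjusted p = 0.12), although its BF arrays, 5.54 to 5.81, did not overlap its FC arrays, 5.21 to 5.47. In BF vs. BG it gave 0.20 (adjusted p = 0.192).

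Mdm2 encodes the ubiquitin ligase that removes p53. Probe set 1427718_a_at read 7.36, 7.63, 7.62, 7.47 and 7.53 in *longissimus dorsi* of BF mice, 6.81, 7.47, 6.86, 6.73 and 7.16 in FC mice, and 6.77, 6.84, 6.97, 6.99 and 7.54 in BG mice. Array FC 2 and array BG 5 were as high as the BF arrays, and the other 8 ground arrays were below all of them. The log2 change was 0.50 in BF vs. BG (95% confidence interval 0.19 to 0.81, limma adjusted p = 0.0336) and 0.52 in BF vs. FC (adjusted p = 0.0518). The first call was lost under 10 of the alternatives, 8 of them single arrays left out, BF 2 to 5 and BG 1 to 4, with adjusted p up to 0.0988, while BF vs. FC gained a call under 10, with adjusted p down to 0.00744, among them leaving out *longissimus dorsi* FC 2 or BG 5 or tongue BF 1 or 2.

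The brighter probe set of Mdm2, 1423605_a_at, did not follow. It averaged 9.17 in BF, 9.12 in FC and 9.05 in BG mice, with a log2 change of 0.12 in BF vs. BG (95% confidence interval -0.13 to 0.37, limma adjusted p = 0.584) and of 0.05 in BF vs. FC (adjusted p = 0.917). The 2 probe sets correlated with r = 0.591 over the 15 arrays, and the annotation does not tell which transcripts each one reads.

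Ccng1, cyclin G1, a p53 target of the cyclin family, was among the brightest genes of the arrays, with 98.5% of all probe sets dimmer than 1420827_a_at. That probe set read 12.43 to 12.76 in BF, 12.36 to 12.78 in FC and 12.51 to 12.99 in BG *longissimus dorsi*, and the groups overlapped over nearly their whole range. Its log2 change was 0.0034 in BF vs. BG (limma adjusted p = 0.992). None of its 3 probe sets was called in either BF comparison. Probe set 1450016_at gave -0.25 in BF vs. BG (adjusted p = 0.239) and gained a call without BG array 5 (-0.37, limma adjusted p = 0.0356). The single call of the 15 probe sets in FC vs. BG, where 8.95% of all probe sets were called, was Ccng1 1450016_at.

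Probe set 1450016_at read 9.82, 9.86, 9.72, 10.11 and 10.08 in FC *longissimus dorsi*, against 10.68, 10.35, 10.42, 10.58 and 9.92 in BG *longissimus dorsi*. Array BG 5 lay within the FC values and the other 4 BG arrays above them. The log2 change was -0.47 (SE 0.132, limma adjusted p = 0.0299), and it lost its call without BG array 1 or 4 or FC array 1, 2 or 3 (adjusted p up to 0.094). The neighbouring probe set 1450017_at gave -0.33 (adjusted p = 0.219).

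Trp53inp1 encodes a p53-induced nuclear protein that takes part in cell death and autophagy. Probe set 1416926_at read 8.91 to 9.86 in BF, 9.18 to 9.73 in FC and 9.12 to 9.87 in BG *longissimus dorsi*, and 1416927_at read 5.04 to 5.84 in BF, 5.09 to 5.35 in FC and 5.20 to 5.74 in BG. All groups overlapped. The log2 changes in BF vs. BG were -0.14 (limma adjusted p = 0.634) and -0.07 (adjusted p = 0.809), and no call was made in any comparison of the housing groups.

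**Figure D3:**
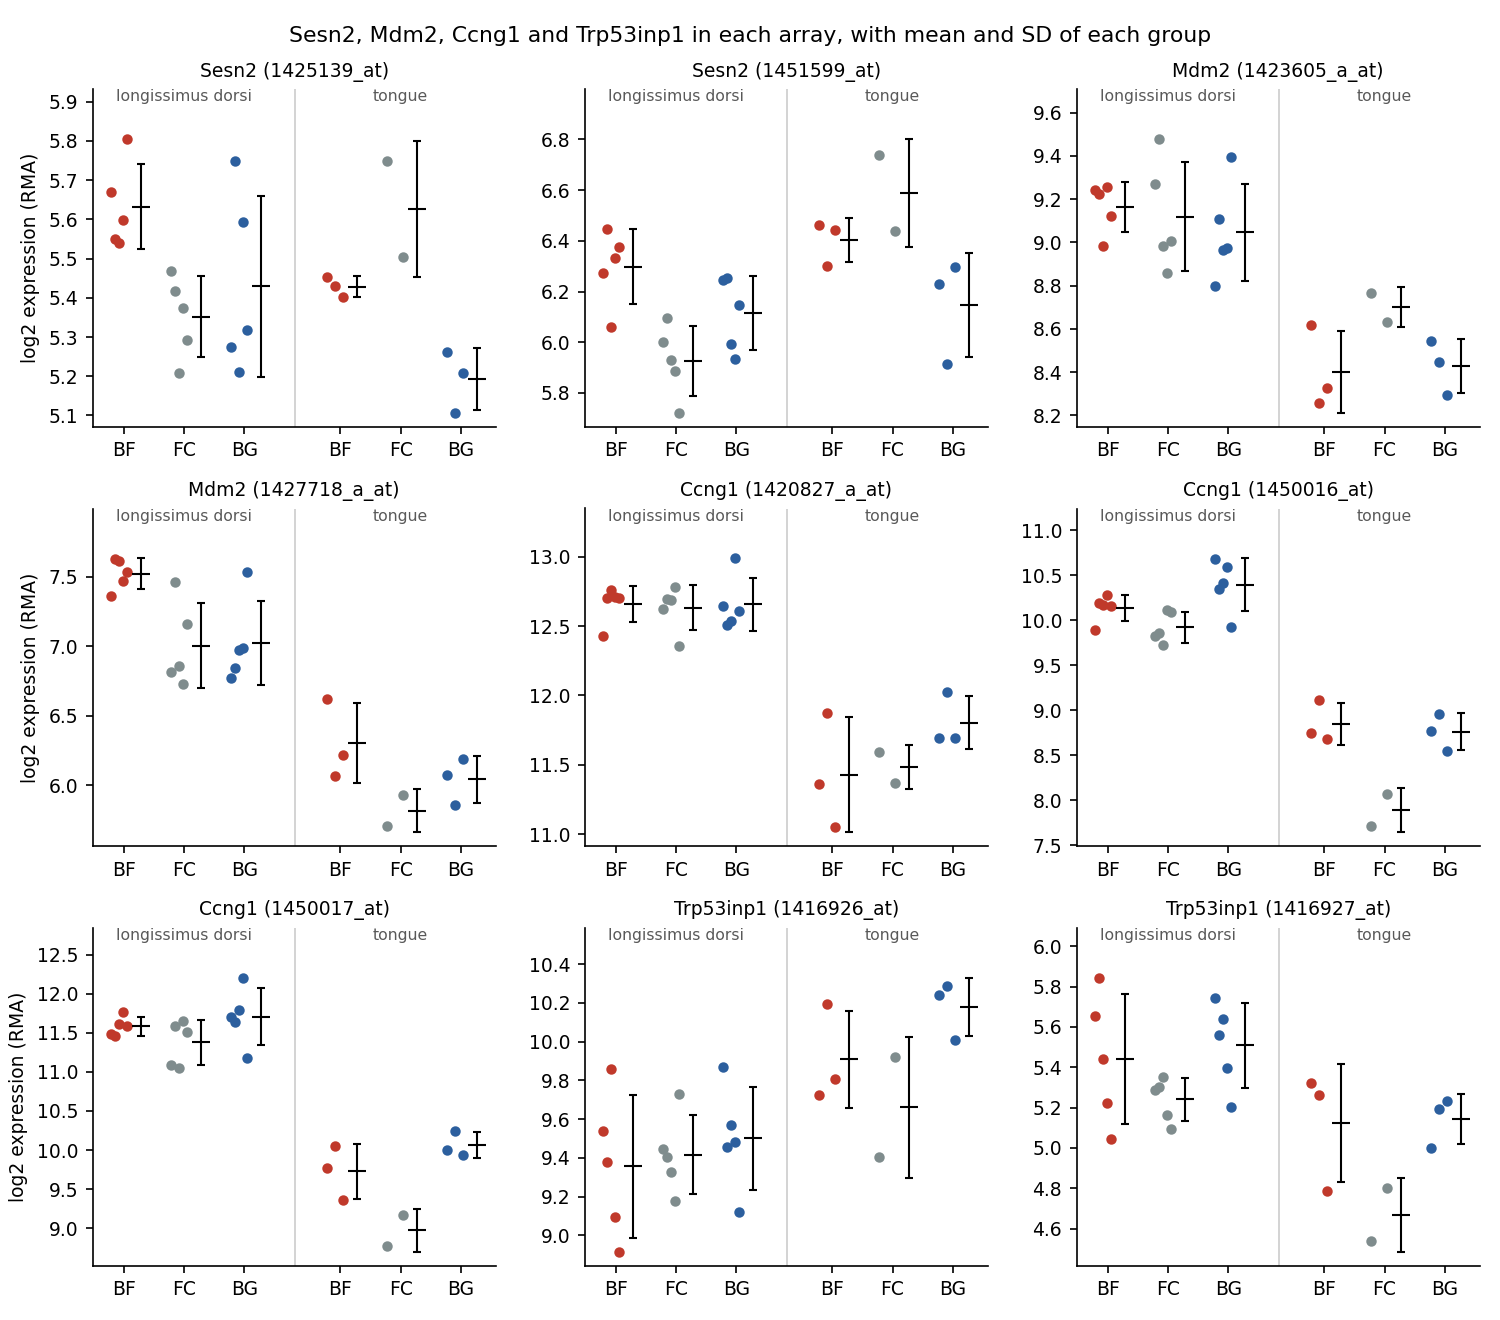
Log2 expression of the probe sets of Sesn2, Mdm2, Ccng1 and Trp53inp1 by muscle and group, with 1 point per array and bars for the group mean and SD. In *longissimus dorsi* the BF arrays of Mdm2 1427718_a_at lie above 8 of the 10 ground arrays, while those of Mdm2 1423605_a_at, Ccng1 1420827_a_at and Trp53inp1 overlap the ground arrays.

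Over all 15 probe sets the median log2 change in *longissimus dorsi* was 0.20 in BF vs. BG, against -0.03 over all probe sets, and 11 of the 15 were above 0, against 44.3% of all. In BF vs. FC the median was 0.37 against -0.03, and 14 of the 15 were above 0, against 43.1%. In FC vs. BG the median was -0.08 against -0.01, with 4 of the 15 above 0, against 47.9%. Groups did not overlap in 3 of the 15 probe sets in BF vs. BG, against 6.98% of all, in 6 in BF vs. FC, against 5.16%, and in 0 in FC vs. BG, against 5.76%. These are bulk tissue values, so fewer cells of a type and less RNA per cell cannot be told apart.

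Markers of other cell types were measured in the same *longissimus dorsi* arrays. Of 5 satellite cell markers, the summed level was 9.28 to 9.69 in BF, 9.75 to 10.10 in FC and 9.62 to 10.54 in BG, and 1 of the 5, Cd34, was lower in BF vs. BG (log2 change -0.85, limma adjusted p = 0.00467), with a median change of -0.05 over the 5. Endothelial markers, 5 in number, summed to 9.68 to 10.22 in BF, 9.70 to 9.83 in FC and 9.37 to 9.88 in BG, and 2 of the 5, Cdh5 and Tie1, were higher in BF vs. BG by 0.46 and 0.60 (limma adjusted p = 0.0144 and 0.0212). Macrophage markers, 9 in number, summed to 10.82 to 12.52 in BF, 11.10 to 12.21 in FC and 11.72 to 13.75 in BG, and 0 of the 9 passed in BF vs. BG, as did 0 of 6 fibroblast markers. In BF vs. FC, 0 markers of these 4 cell types passed. The part of these cells in the changes of Sesn1, Cdkn1a, Gadd45a and Mdm2 was not tested.

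In tongue, BF vs. BG gave 0 calls among the 15 probe sets, against 0.826% of all, and 1 reached an unadjusted p under 0.05 (Ccng1 1420827_a_at, log2 change -0.38, limma adjusted p = 0.281, and 0.0336 without tongue BF array 2). Sesn1 1433711_s_at read 10.13, 9.72 and 9.92 in BF tongue, 9.59 and 9.62 in FC tongue, and 10.10, 9.78 and 9.98 in BG tongue. BF and BG overlapped throughout, with a log2 change of -0.03 (95% confidence interval -0.38 to 0.32). Gadd45a 1449519_at read 8.89, 8.64 and 8.52 in BF, 8.50 and 8.58 in FC, and 8.58, 8.62 and 8.89 in BG tongue, a log2 change of -0.01 in BF vs. BG (95% confidence interval -0.37 to 0.35).

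Cdkn1a 1421679_a_at read 11.16, 10.63 and 11.33 in BF tongue, 10.51 and 10.64 in FC tongue, and 10.87, 10.64 and 11.02 in BG tongue. The tongue values of every group stood above every *longissimus dorsi* value, and BF and BG tongue overlapped, with a log2 change of 0.19 (95% confidence interval -0.47 to 0.85). Groups did not overlap in BF vs. BG tongue for 2 of the 15 probe sets, both of Sesn2, against 18.5% of all probe sets.

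Whether the BF vs. BG change differed between *longissimus dorsi* and tongue was tested itself. It was 1.15 for Sesn1 1433711_s_at (SE 0.212, 95% confidence interval 0.71 to 1.59, limma adjusted p = 0.0287), the only one of the 15 probe sets that passed, where 0.172% of all probe sets did. Its call was lost under 9 of the alternatives, with adjusted p from 0.0522 to 0.15, namely without moderation, with quantile normalization within muscle, and without *longissimus dorsi* BF 3, BF 4, BG 1, BG 2 or BG 3 or tongue BF 3 or BG 1. The differences for Sesn1 1454699_at (1.46, adjusted p = 0.063), Gadd45a (0.96, adjusted p = 0.0726), Sesn1 1438931_s_at (1.59, adjusted p = 0.0861) and Cdkn1a 1424638_at (1.29, adjusted p = 0.184) did not pass. In BF vs. FC, 0 of the 15 differences passed, where 0.0663% of all did, the one with the lowest adjusted p being Cdkn1a 1424638_at (1.67, adjusted p = 0.235).

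The calls in tongue were all of Ccng1, in the comparisons with FC. Probe set 1450016_at read 8.75, 9.11 and 8.68 in BF tongue, 7.71 and 8.06 in FC tongue, and 8.77, 8.96 and 8.55 in BG tongue. Both FC arrays lay below all others. The log2 change was 0.96 in BF vs. FC (SE 0.191, limma adjusted p = 0.00835), the 1 call of 15 in a comparison in which 2.24% of all probe sets were called. Ccng1 1450017_at gave 0.76 (adjusted p = 0.0936) and the brightest, 1420827_a_at, gave -0.06 (adjusted p = 0.931).

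In FC vs. BG tongue the calls were Ccng1 1450016_at, with a log2 change of -0.87 (limma adjusted p = 0.00744), and Ccng1 1450017_at, with -1.09 (adjusted p = 0.0066), 2 of 15 where 9.45% of all were called. The brightest Ccng1 probe set gave -0.32 (adjusted p = 0.33). With 2 FC tongue arrays, every one of these calls was lost without FC array 1 (adjusted p = 0.276 in BF vs. FC, and 0.177 and 0.162 in FC vs. BG). The log2 changes were then 0.78, -0.70 and -0.89, in a fit that takes the lone FC array to vary like the other groups. Sesn2 did not pass in FC vs. BG tongue, with 0.43 for 1425139_at (limma adjusted p = 0.0517) and 0.44 for 1451599_at (adjusted p = 0.0578). These gained a call under 8 and 4 of the alternatives. Sesn1 1454699_at gave -0.60 (adjusted p = 0.211) and gained a call under 2. Groups did not overlap in 6 of the 15 probe sets in BF vs. FC tongue, against 37.8% of all, and in 11 in FC vs. BG tongue, against 44.8%.

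**Figure D4:**
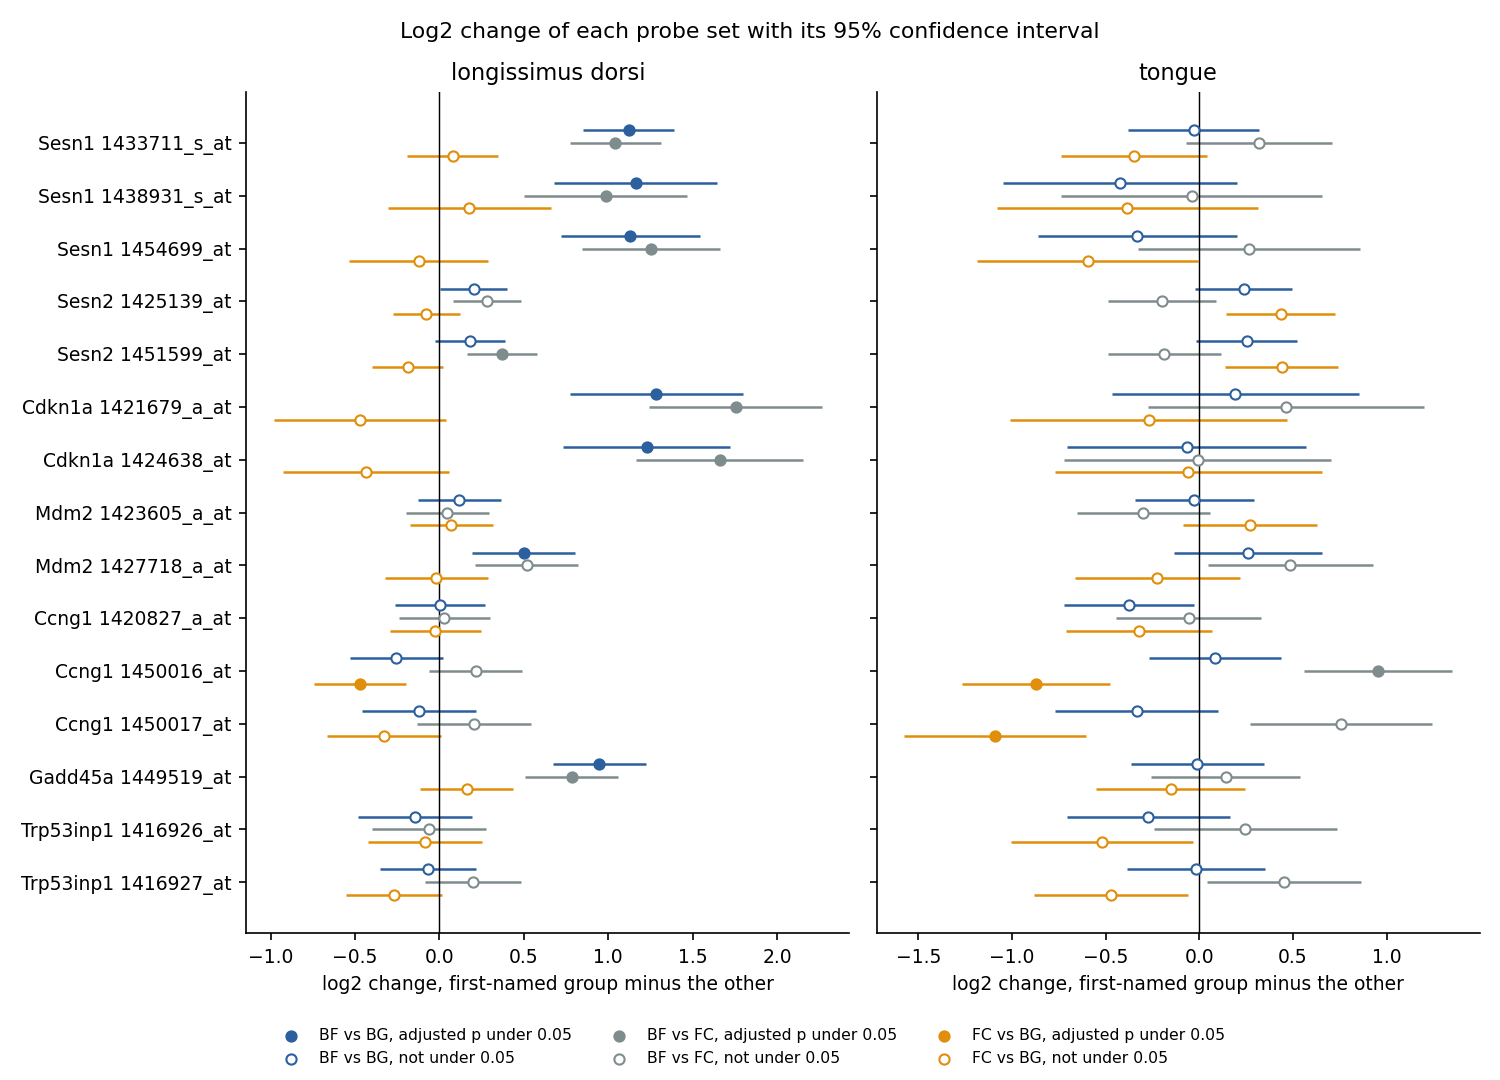
Log2 change of each of the 15 probe sets in *longissimus dorsi* and tongue for BF vs. BG, BF vs. FC and FC vs. BG, with lines for the 95% confidence interval and filled points for an adjusted p under 0.05. In *longissimus dorsi* the filled points of Sesn1, Cdkn1a and Gadd45a lie between 0.78 and 1.76, and in tongue the filled points are those of Ccng1 in the comparisons with FC.

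Between the muscles of the ground mice (FC and BG averaged), 14 of the 15 probe sets were called, and 64.3% of all probe sets were. The median log2 difference of *longissimus dorsi* minus tongue over all probe sets was 0.16. Cdkn1a was 4.98-fold and 5.85-fold higher in tongue by its 2 probe sets, the log2 differences being -2.32 and -2.55. Sesn1 was also lower in *longissimus dorsi*, by 0.58, 0.74 and 0.54 in size for its 3 probe sets, and Gadd45a differed by -0.30 (limma adjusted p = 0.0295). The replicate block groups equal numbers within each muscle, so it cannot test a difference in level between the muscles. The Gadd45a call was lost with median centring (limma adjusted p = 0.124) and without *longissimus dorsi* FC 1 (0.0512) or tongue BG 3 (0.0812). With 1 FC tongue array left, the Gadd45a difference was -0.32 without FC 1 and -0.28 without FC 2.

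Ccng1 was higher in *longissimus dorsi* by 1.001, 1.83 and 2.02 (limma adjusted p = 8.44e-08, 4.27e-12 and 2.82e-11), and Mdm2 by 0.52 and 1.08. For Trp53inp1 the probe sets went in opposite directions, -0.46 for 1416926_at and 0.47 for 1416927_at. Without tongue FC 2, which left 1 FC tongue array, the difference of 1416926_at was -0.33. Sesn2 1425139_at was the 1 probe set without a call (-0.02, adjusted p = 0.857). The keratinocyte marker sums given above differ between the muscles in every array, and their part in these differences was not tested.

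Genes whose values followed the members most closely were ranked by their closest probe set that names 1 gene. Over the 15 *longissimus dorsi* arrays, those most like Sesn1 were Mocs1 (r = 0.941), Ank3 (0.932) and Fkbp5 (0.925), and those most like Gadd45a were Jup (0.944), Cebpb (0.927) and, by another probe set, Fkbp5 (0.923). Fkbp5 is a co-chaperone that glucocorticoids induce. For Cdkn1a they were Yrdc (0.927), Rpf1 (0.906) and Fbxo9 (0.904), for Sesn2 Cldn15 (0.878), Trim8 (0.84) and Ankrd1 (0.801), and for Ccng1 Cycs (0.888), the gene of cytochrome c, before Pkia and Atp5pb. The Mdm2 probe set 1423605_a_at was closest to Ppp6r2 (0.868), Grk6 and Pcid2, and Trp53inp1 to D930048N14Rik (0.913), Kcnab3 and Gad2.

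Over all 23 arrays, after each muscle's mean was subtracted, Sesn1 was closest to Fbxo32 (0.898), the ubiquitin ligase atrogin-1 of muscle atrophy, Zfand5 (0.889) and Tmem140 (0.875). Gadd45a was closest to Ywhag (0.868), Zfand5 (0.865) and Tbc1d1 (0.865), and Cdkn1a to Lcn2 (0.869), Rac1 (0.845) and 6430548M08Rik (0.84). Ccng1 was again closest to Cycs (0.924), and Sesn2 to Hmox1 (0.787). These values describe likeness over arrays that share 3 housing groups, and each was picked as the highest among all genes.

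Other genes of the pathway were counted with 1 probe set per gene, the brightest. On this count 6.06% of all genes were higher and 4.48% lower in BF vs. BG *longissimus dorsi*, 1.24% higher and 1.84% lower in BF vs. FC, and 8.07% higher and 2.19% lower in FC vs. BG. The 7 member genes themselves gave 3 higher in BF vs. BG and 4 higher in BF vs. FC. The median change of each list lay between -0.09 and 0.24 in these 3 comparisons, against medians of 0.18 and 0.37 for the members in the BF comparisons.

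Of 14 measured genes of p53 regulation, 3 were higher and 0 lower in BF vs. BG. They were the coactivator Crebbp (log2 change 0.52, limma adjusted p = 0.000507), the phosphatase Ppm1d, itself a p53 target (0.51, adjusted p = 0.00445), and the kinase Hipk2 (0.46, adjusted p = 0.0219). Dimmer probe sets of Hipk2 gave 0.87 and 0.71 in BF vs. BG (limma adjusted p = 0.012 and 0.00615). Others gave 0.26 and 0.17 there and did not pass (limma adjusted p = 0.275 and 0.178). The brightest gave 0.38 in FC vs. BG (limma adjusted p = 0.0577) and 0.08 in BF vs. FC (adjusted p = 0.851). Those at 0.87 and 0.71 were also called higher in FC vs. BG (0.82 and 0.67, limma adjusted p = 0.0201 and 0.0117). Those at 0.26 and 0.17 gave 0.07 and 0.19 there. In BF vs. FC 0 of the 14 were higher and 2 lower, the p53-binding protein Trp53bp1 (-0.68, adjusted p = 0.00199) and the p53 inhibitor Mdm4 (-0.35, adjusted p = 0.0448). The other probe set of Mdm4 gave -0.10 there (limma adjusted p = 0.841). In tongue the brightest Mdm4 probe set gave -0.68 in BF vs. FC (adjusted p = 0.0102) and 0.68 in FC vs. BG (adjusted p = 0.00484). In FC vs. BG 4 of the 14 were higher and 0 lower. Crebbp was among them (0.49, adjusted p = 0.00211), as was Trp53bp1 (0.60, limma adjusted p = 0.00409), and the others, named after their values were seen, were Usp7 (0.50, adjusted p = 0.00586) and Cop1 (0.31, adjusted p = 0.00707). Trp53 itself was not analysed here, since the annotation used names it on no probe set of its own.

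Of 26 other p53 target genes, 2 were higher and 1 lower in BF vs. BG, and 0 passed in BF vs. FC. The DNA damage recognition gene Xpc (0.34, limma adjusted p = 0.0106) and the Akt inhibitor Phlda3 (0.50, adjusted p = 0.0309) were higher, and the apoptosome gene Apaf1 was lower (-0.37, adjusted p = 0.0313). The other probe set of Apaf1 gave -0.02 in BF vs. BG (limma adjusted p = 0.949). In FC vs. BG, 2 were higher, Ei24 (0.41) and Xpc (0.31), and 1 was lower. The median change of the 26 was 0.05 in each BF comparison.

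Of 23 genes around the sestrins and mTORC1, 6 were higher and 2 lower in BF vs. BG. The autophagy kinase Ulk1 was 0.82 higher (limma adjusted p = 9.31e-06), the translation inhibitor Eif4ebp1 0.83 higher (adjusted p = 0.00513), the AMPK kinase Stk11 0.46 higher (adjusted p = 0.00312) and Keap1, which binds sestrins and the antioxidant factor NRF2, 0.42 higher (adjusted p = 0.0143). The lower ones, named after their values were seen, were the GATOR members Nprl2 (-0.37, adjusted p = 0.0377) and Sec13 (-0.35, adjusted p = 0.0416). Sesn3 differed by 0.0021 (adjusted p = 0.994).

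By the brightest probe sets, only 1 of the 23 was higher in BF vs. FC, Eif4ebp1 (0.70, limma adjusted p = 0.0275), and 0 were lower. In FC vs. BG 8 were higher and 0 lower. Ulk1 averaged 10.15 ± 0.14 in BF, 10.05 ± 0.090 in FC and 9.33 ± 0.13 in BG (SD, n = 5 each), so the BG mice stood apart on this probe set, with 0.73 in FC vs. BG (adjusted p = 0.000205) and 0.09 in BF vs. FC (adjusted p = 0.69). Its other probe set gave 0.67 in BF vs. BG (adjusted p = 0.00775) and 0.18 in FC vs. BG (adjusted p = 0.512). Stk11 gave -0.03 in BF vs. FC (adjusted p = 0.941) and 0.49 in FC vs. BG (adjusted p = 0.00348). The other probe set of Stk11 gave -0.13 in BF vs. BG (adjusted p = 0.566). Eif4ebp1 averaged 10.995 ± 0.24 in BF, 10.30 ± 0.20 in FC and 10.17 ± 0.51 in BG, and its 3 probe sets were called in both BF comparisons. The brightest probe set of Keap1 gave 0.09 in BF vs. FC (adjusted p = 0.794). Its other probe set gave 0.80 in BF vs. FC (adjusted p = 0.00841) and 1.01 in BF vs. BG (adjusted p = 0.00066).

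Of 22 G1/S cyclins, kinases and inhibitors, 3 were higher and 1 lower in BF vs. BG, by the brightest probe set of each gene. On this count 0 passed in BF vs. FC. The higher genes restrain the cell cycle, namely the pocket protein Rbl2 (0.87, limma adjusted p = 0.0025), the cyclin Ccng2 (0.50, adjusted p = 0.00279) and the inhibitor Cdkn1b, or p27 (0.55, adjusted p = 0.0195), while the kinase Cdk6 was lower (-0.33, adjusted p = 0.0262). Dimmer probe sets of Ccng2 and Rbl2 were called higher in BF vs. FC as well (0.81 and 0.85, limma adjusted p = 0.00511 and 0.0235). For Cdkn1b the brightest and the dimmer probe set gave 0.34 and 0.40 there and did not pass (limma adjusted p = 0.238 and 0.167). In FC vs. BG 1 was higher, Ccng2 (0.36, limma adjusted p = 0.0263). The same brightest probe set of Ccng2 gave 0.14 in BF vs. FC (adjusted p = 0.542). The 2 lower in FC vs. BG were Gadd45b (-0.80, adjusted p = 0.0154), a relative of Gadd45a, and Pcna (-0.46, adjusted p = 0.0207). Of 13 Bcl2 family genes, 2 were higher in BF vs. BG, the cell death activator Bcl2l11 (0.46, adjusted p = 0.00578) and the survival gene Mcl1 (0.43, adjusted p = 0.0156), and Bcl2l11 was also higher in BF vs. FC (0.39, adjusted p = 0.0291). The other probe sets of Mcl1 gave 0.13 to 0.30 in BF vs. BG and did not pass (limma adjusted p from 0.0728 to 0.505). In tongue, 0 genes of these 5 lists passed in BF vs. BG, where 0.323% of all genes were higher and 0.508% lower. In FC vs. BG tongue, 5.72% of all genes were higher and 4.18% lower. There p53 regulation and the sestrin and mTORC1 list each had 3 higher and 1 lower. The Bcl2 family had 2 and 1, the G1/S list 1 and 1, and other p53 targets 0 and 1. In BF vs. FC tongue, p53 regulation had 1 higher and 1 lower and the G1/S list 1 lower, against 0.533% and 0.871% of all.

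**Figure D5:**
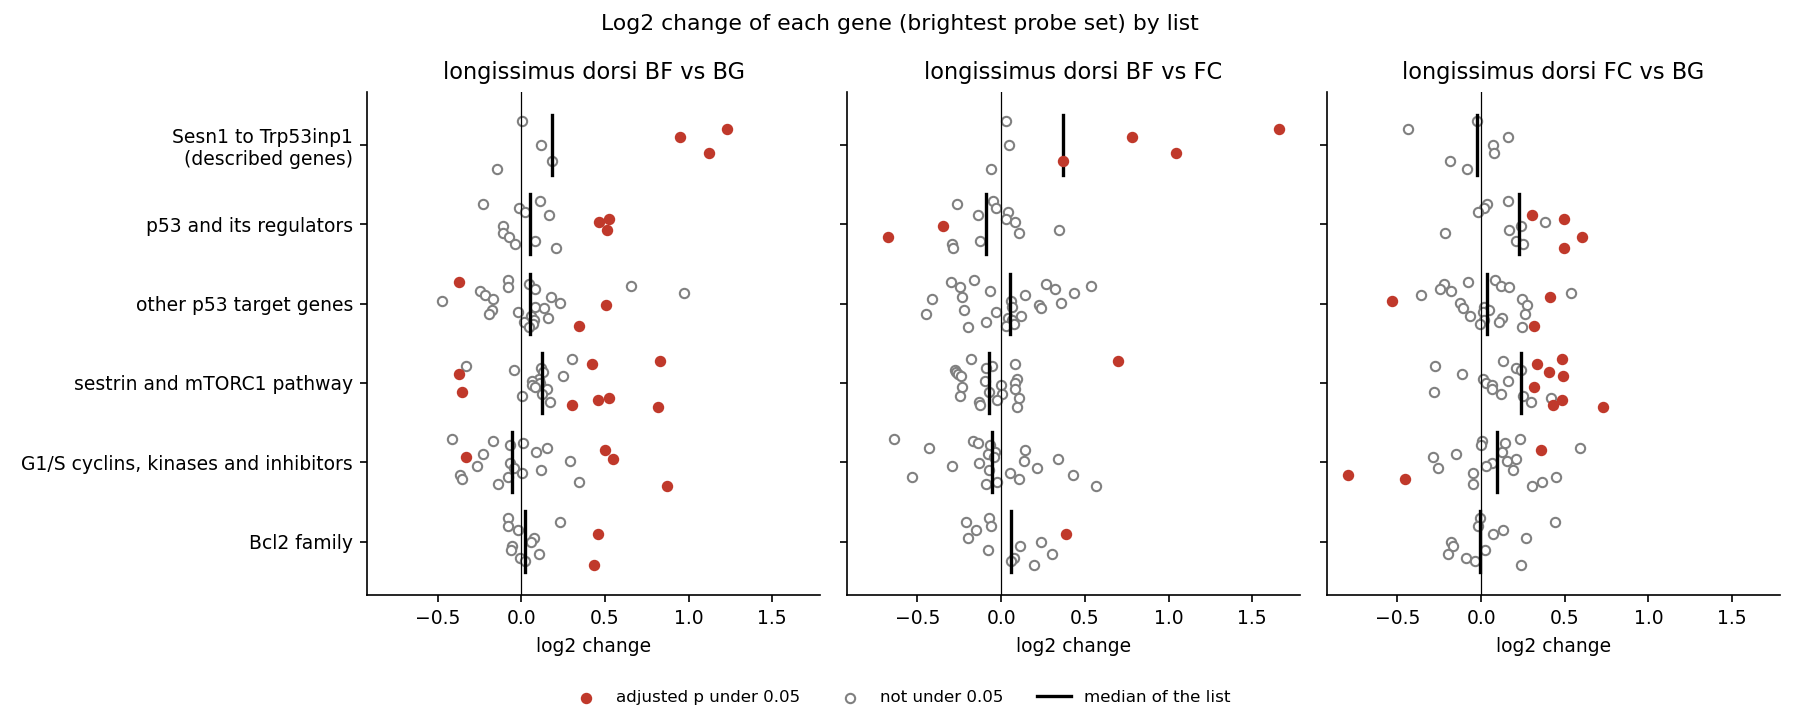
Log2 change of each gene in *longissimus dorsi*, by list, for BF vs. BG, BF vs. FC and FC vs. BG, with filled points for an adjusted p under 0.05 and a bar at the median of the list. Sesn1, Cdkn1a and Gadd45a lie to the right of nearly all genes of the other lists in both BF panels, and the sestrin and mTORC1 list holds 8 filled points in FC vs. BG.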

How the data were processed

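Total RNA of *longissimus dorsi* and tongue was hybridized to Affymetrix Mouse Genome arrays. The authors deposited log2 values per probe set, made with RMA in Partek Genomics Suite (background correction, quantile normalization over arrays and median polish). RMA puts all arrays on 1 distribution, so a change shared by most genes is removed. Of 22626 probe sets, 20380 name 1 gene in the platform annotation, 691 several and 1555 none. All arrays were fitted in 1 linear model of 6 groups, taken from the sample labels, with limma 3.58.1 (eBayes) in R 4.3.3, with no filter, and with the Benjamini-Hochberg correction across the whole table. The procedure was tested on simulated data. The number of arrays limits the precision. Motifs and figures were made in Python 3.11.15.

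The members and gene lists were chosen with earlier results of these data known. Named genes are all members, up to 4 genes of each list with the lowest adjusted p in BF vs. BG *longissimus dorsi*, up to 2 in the other comparisons, and the 3 genes most like each member. Others are stated where named. Alternatives were each muscle alone, no moderation, trend and robust moderation, brighter probe sets, quantile normalization within muscle, median centring, array weights, the replicate block, housing and number as a random block over both muscles, 1 probe set per gene, and each array left out. Leaving out the array of widest spread in each *longissimus dorsi* group was added after the data were seen.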

Additional observations from a re-analysis of the deposited data

Results flagged for a closer look

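Several single arrays stood apart from their group by Dixon's criterion at 95%. Of 45 groups of 5 *longissimus dorsi* arrays tested, 6 had such an array, and chance gives about 1 in 20 groups, or 2.25 here.

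Array FC 5 was high for both Cdkn1a probe sets, with 9.07 for 1421679_a_at, where the next FC array read 8.11, and 9.81 for 1424638_at, where the next read 8.79. Array BG 4 was high for Sesn1 1433711_s_at (9.31, with the next at 9.14) and for Ccng1 1420827_a_at (12.99, with the next at 12.64). Array BG 5, the array with the highest macrophage marker sum, was high for Mdm2 1427718_a_at (7.54, with the next at 6.99). Array BF 1, the array with the highest Schwann cell marker sum, was low for Ccng1 1420827_a_at (12.43, with the next at 12.70).

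Sesn1 1433711_s_at is listed for the difference between its BF vs. BG changes in *longissimus dorsi* and in tongue, which was 1.15 on the log2 scale (limma adjusted p = 0.0287).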

How the results depend on the processing

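Under the 34 alternatives (fewer for probe sets that some of them leave out), 0 called changes of the members turned direction, and the calls of Sesn1 in BF vs. BG *longissimus dorsi* and of Cdkn1a and Gadd45a in both BF comparisons were never lost. With 1 probe set per gene the calls numbered 3 in BF vs. BG, 4 in BF vs. FC and 0 in FC vs. BG *longissimus dorsi*, 0 in BF vs. FC and 0 in FC vs. BG tongue, and 7 between the muscles, since only 7 probe sets remain. The replicate block left the *longissimus dorsi* counts at 7, 8 and 1. It gave 2 in BF vs. FC tongue, 5 in FC vs. BG tongue and 3 for the muscle difference in BF vs. BG. Its numbers lie within muscle, so it cannot test the level of 1 muscle against the other. The labels do not say that equal numbers pair samples, and for that reason they were not taken as pairs. The correlation of same-numbered deviations within a muscle ranged from -0.218 to 0.545, and what equal numbers share was not tested. In the data 7 of 15 *longissimus dorsi* arrays correlated best with their own number, and the 3 tongue pairs of BF and BG had 0.167, 0.383 and 0.203, a comparison that kept 0 calls with the block. The random block gave 3 calls in FC vs. BG tongue and left the other counts of member calls as they were. Array weights gave 3 and 4 calls in these tongue comparisons, 5 for the difference in BF vs. BG and 1 for that in BF vs. FC. The difference in BF vs. BG had 0 calls without moderation, 0 with quantile normalization within muscle, and 2 among brighter probe sets. With the most widely spread *longissimus dorsi* array of each group left out (BF 1, FC 1 and BG 5), chosen after the data were seen, it had 5 and BF vs. FC tongue had 2. The cause of these shifts was not tested.

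With each array left out in turn, calls ranged from 6 to 8 in BF vs. BG, 5 to 8 in BF vs. FC and 0 to 2 in FC vs. BG *longissimus dorsi*, 0 to 1, 0 to 2 and 0 to 3 in the same comparisons of tongue, 12 to 14 between the muscles, 0 to 5 for the difference in BF vs. BG and 0 to 0 for that in BF vs. FC. Counts moved by over 1.5 times without *longissimus dorsi* BG 1, 4 or 5 or FC 1, 2 or 3 in FC vs. BG *longissimus dorsi*, without tongue BF 2 in BF vs. BG tongue, without tongue FC 1 or *longissimus dorsi* BG 5 in BF vs. FC tongue, without tongue FC 1 in FC vs. BG tongue, and without any of 13 arrays for the difference in BF vs. BG, *longissimus dorsi* BF 1, 3 and 4, BG 1 to 5 and FC 1 and tongue BF 2 and 3 and BG 1 and 3. Of the lists in BF vs. BG *longissimus dorsi*, the sestrin and mTORC1 count ranged from 4 to 9 (moved by leaving out BF 1, 3, 4 or 5 or BG 1, 2, 3 or 4), that of other p53 targets from 1 to 4 (BF 3 or 4) and that of G1/S genes from 2 to 6 (BF 4, BG 1 or BG 2). With array weights 5 genes of p53 regulation and 7 G1/S genes passed.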
